A study of Mus musculus with 12 samples.

Results

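Ribosome biogenesis and MYC target genes were examined as a set of 44 genes whose products transcribe ribosomal RNA, modify and cut it, assemble the ribosomal subunits, or serve as well-known metabolic and mitochondrial targets of the transcription factor MYC. The genes were chosen by name, and each was read from the probe set that carried its symbol alone and had the highest mean over the 12 arrays. By this rule 42 of the 44 genes were measured, among 22180 genes in all, and Fbl and Tsr1 were not analysed here because their probe sets carry a second symbol. Total RNA of mouse embryonic fibroblasts, primary connective tissue cells, was hybridised to whole-transcript Affymetrix arrays. Cells were wild type (WT) or lacked Gdap1 (KO), a gene known for a mitochondrial outer membrane protein, and were taken at day 0, before reprogramming, or at day 4 after transduction with OSKM, the factors Oct4, Sox2, Klf4 and c-Myc. Each of the 4 groups (WT day 0, WT day 4, KO day 0, KO day 4) had 3 arrays, all from cells grown in DMEM with fetal bovine serum. Nothing in the labels tells if replicate arrays came from separate embryos or cultures, so the p-values measure only the spread between these arrays, which may be technical. The labels also speak of mock transduction without saying which arrays it applied to, and they name no batch, so that any batch and the groups cannot be told apart.

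Ribosome production starts in the nucleolus, where RNA polymerase I makes a long precursor RNA. Small nucleolar ribonucleoproteins (snoRNPs) guide its methylation (box C/D) and pseudouridylation (box H/ACA), and separate sets of processing factors then cut and fold it into the small and the large subunit. MYC is known to raise transcription of many of these genes and of enzymes of nucleotide and polyamine synthesis, and dividing cells need a steady supply of ribosomes. MYC binds DNA with its partner MAX at the E-box CACGTG.

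Promoter stretches are printed for 5 genes that fell in KO over the 4 days. Of these, 3 have the letters CACGTG upstream of the annotated start and 2 have no CACGTG in the window. The latter 2 were those without it that had the smallest p in KO over time. The sequences are from RefSeq (build GRCm38.p6) and run 5′ to 3′ on the strand of the gene, with CACGTG in capitals. Nme1 is shown at chr11:93968273-93968332 (minus strand), Nop2 at chr6:125131796-125131855 (plus), Imp4 at chr1:34439681-34439740 (plus), Odc1 at chr12:17544813-17544872 (plus) and Bysl at chr17:47611493-47611552 (minus).
Nme1: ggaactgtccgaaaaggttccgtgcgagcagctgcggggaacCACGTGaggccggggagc
Nop2: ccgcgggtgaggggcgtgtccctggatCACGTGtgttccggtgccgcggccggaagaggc
Imp4: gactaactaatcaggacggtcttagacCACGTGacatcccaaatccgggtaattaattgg
Odc1: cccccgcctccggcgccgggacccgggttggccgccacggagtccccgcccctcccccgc
Bysl: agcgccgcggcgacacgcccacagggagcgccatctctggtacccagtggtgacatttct
The motif starts 18 bases before the annotated start in Nme1, 60 before it in Nop2 and 121 before it in Imp4. A second annotated start of Nme1, not shown, has a CACGTG that starts 29 bases before it.

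RefSeq windows, from 250 bases before to 50 bases after an annotated start, were matched for 37 of the 42 measured genes and gave 42 windows. CACGTG, which reads the same on both strands, lay in 8 of these windows (19.0%), against 7.15% of all 32851 mouse windows of the same length. Upstream of the start alone the shares were 9.52% and 6.02%. The related letters CACGCG, searched on both strands as CACGCG or CGCGTG, lay in 14 windows (33.3%), against 9.27% of all windows. Both motifs were in the windows of Pes1 and Mybbp1a. The windows of Odc1 and Bysl, which have no CACGTG, held 2 and 1 matches to CACGCG. The 7 genes with CACGTG were Utp20, Wdr43, Imp4, Pes1, Nop2, Mybbp1a and Nme1. These matches describe letters only.

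The values are log2 signals, so a difference of 1 is a 2-fold difference, and levels of different probe sets are not compared. All 42 genes lay above the 25th percentile of gene means (3.75), and the lowest of them was at the 60.4th percentile. Gdap1 itself read between 2.82 and 3.30 on all 12 arrays, under that percentile in WT and KO alike, so its probe set does not check the genotype labels. The mean over 14 fibroblast markers, among them Vim and Col1a1, was 10.39 to 10.80 on every array. The mean over 11 pluripotency markers was 4.06 to 4.40. The first WT day 4 array stood apart: its mean correlation with the other arrays of its group was 0.987, against 0.991 to 0.997 for the other 11 arrays. Counts of the 42 genes that passed, and some of those of the other lists, are given with and without it. RNA came from bulk cultures, so fewer cells of a type and less RNA per cell cannot be told apart.

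**Figure D1:**
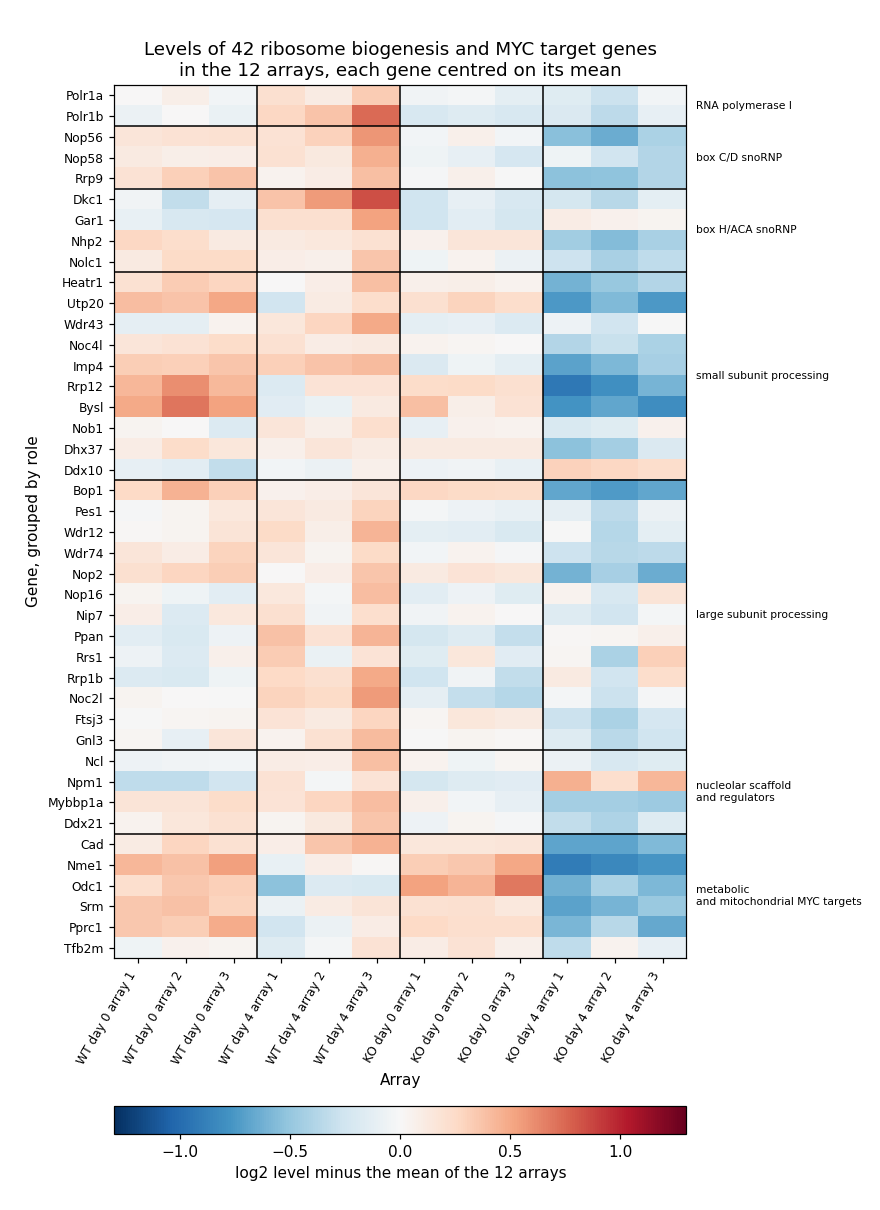
Heat map of the 42 genes (rows, ordered by role) on the 12 arrays (columns, by group), coloured by the log2 value minus the mean of the gene over all arrays. The KO day 4 columns are low for most rows and high for Npm1 and Ddx10, and the third WT day 4 column is the highest for many rows.

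The first question was how the genes changed over 4 days of reprogramming in WT cells. They moved both ways: 8 of 42 rose and 8 fell at an adjusted p under 0.05, while 11.1% of all genes rose and 11.7% fell. Among the 8789 genes at or above the mean level of the lowest member, 18.3% rose and 22.2% fell, near the 19.0% of the 42 genes in each direction. The genes that rose were Polr1b, Dkc1, Gar1, Wdr43, Ppan, Rrp1b, Noc2l and Npm1. Those that fell were 4 of the 6 metabolic targets, 3 small subunit factors and the large subunit factor Bop1. The median change over the 42 genes was 0.11 log2, beside -0.01 over all genes, and it was 0.05 without the third WT day 4 array and 0.06 with each array centred on its median. Dkc1, the pseudouridine synthase of box H/ACA snoRNPs, rose most, by 0.75 ± 0.12 log2 (SE, n = 3 per group; adjusted p = 0.000459). Bysl, a factor of the small subunit, fell most, by 0.61 ± 0.10 (adjusted p = 0.000706). Without the first WT day 4 array 9 rose and 6 fell. Without array 1 or 2 of WT day 0 or array 3 of WT day 4, 5 rose, and without array 2 or 3 of WT day 0, 5 fell.

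In KO cells the balance lay on the lower side: 22 of 42 genes fell and 4 rose over the same 4 days, while 16.9% of all genes fell and 13.8% rose. Among the 8789 genes at that level or above, 32.0% fell and 19.8% rose. Every KO day 4 array was below every KO day 0 array for 25 of the 42 genes, against 24.8% of all genes. The median change was -0.30 log2, beside -0.01 over all genes and -0.09 over those 8789. Falls of at least 2-fold were measured for 3 genes, Nme1 (2.34-fold), Odc1 (2.12-fold) and Rrp12 (2.01-fold). The genes that rose were Gar1, Ppan, Npm1 and Ddx10. Without array 1 or 3 of KO day 0 or array 3 of KO day 4, 2 genes rose instead of 4. Leaving out the first WT day 4 array, which enters only the estimate of spread, gave 4 higher and 23 lower.

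The mean over the 42 genes, each centred on its own mean, was 0.10 to 0.14 on the WT day 0 arrays and -0.00 to 0.04 on the KO day 0 arrays. It was 0.09, 0.12 and 0.32 on the WT day 4 arrays and -0.32, -0.37 and -0.25 on the KO day 4 arrays. The KO day 4 arrays were thus the lowest of all, and the third WT day 4 array was the highest.

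**Figure D2:**
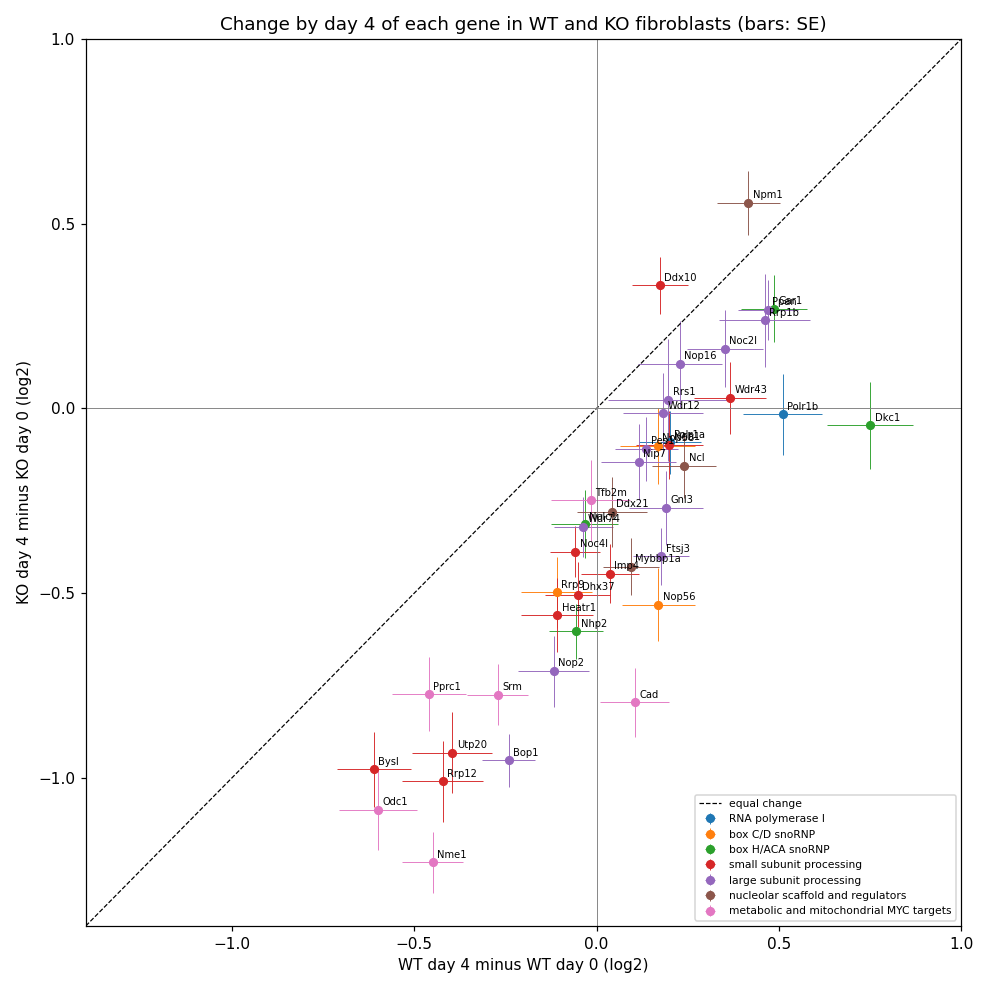
Day 4 minus day 0 in WT (horizontal axis, log2) against that in KO cells (vertical axis, log2) for the 42 genes, coloured by role, with bars for the SE. Points lie below the diagonal for 40 of the 42 genes, and Npm1 and Ddx10 lie above it.

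RNA polymerase I was represented by its largest subunits, encoded by Polr1a and Polr1b. Polr1b read 6.86, 6.95 and 6.86 in WT day 0, 7.22, 7.31 and 7.68 in WT day 4, 6.74, 6.77 and 6.74 in KO day 0 and 6.76, 6.61 and 6.84 in KO day 4. The WT day 4 arrays were above all the others, and the KO day 4 arrays overlapped KO day 0. The rise in WT was 0.51 ± 0.11 log2 (SE, n = 3 per group; adjusted p = 0.00397), and the change in KO was -0.02 ± 0.11 log2 (SE, n = 3 per group; adjusted p = 0.934). Polr1a read 7.75, 7.82 and 7.72 in WT day 0, 7.95, 7.85 and 8.08 in WT day 4, 7.70, 7.72 and 7.62 in KO day 0 and 7.59, 7.46 and 7.71 in KO day 4. At day 4 all KO arrays were below all WT arrays for both genes, and both differences passed the test, at -0.37 ± 0.09, adjusted p = 0.00852 for Polr1a and -0.67 ± 0.11, adjusted p = 0.0012 for Polr1b.

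The box C/D snoRNP genes Nop56 and Nop58 encode core proteins of the methylation complex, and Rrp9 encodes a protein of the U3 snoRNP. Nop56 read 9.21, 9.25 and 9.25 in WT day 0, 9.24, 9.35 and 9.63 in WT day 4, 9.02, 9.11 and 9.02 in KO day 0 and 8.51, 8.41 and 8.64 in KO day 4. The KO day 4 arrays were the lowest and did not overlap any other group. Nop56 fell in KO by 0.53 ± 0.10 (adjusted p = 0.00122) and did not pass the test in WT (0.17 ± 0.10, adjusted p = 0.274). Rrp9 fell in KO by 0.50 ± 0.10 (adjusted p = 0.00155). Nop58 changed by 0.17 ± 0.10, adjusted p = 0.301 in WT and -0.10 ± 0.10, adjusted p = 0.511 in KO, neither past the test. All 3 were lower in KO than in WT at day 4, with differences of -0.89 to -0.49 log2. Nop56 had other probe sets that read otherwise, given among the closing observations, and with the probe sets averaged its change was 0.45 (adjusted p = 0.00778) in WT and -0.11 (adjusted p = 0.479) in KO, and the difference of these changes did not pass (-0.57, adjusted p = 0.0592).

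The box H/ACA genes split. Dkc1 read 7.66, 7.38 and 7.59 in WT day 0, 8.08, 8.26 and 8.54 in WT day 4, 7.45, 7.59 and 7.49 in KO day 0 and 7.47, 7.35 and 7.58 in KO day 4. Here the WT day 4 arrays stood above the other 9, which lay between 7.35 and 7.66. Nhp2, a core protein of the same particle, read 7.71, 7.67 and 7.56 in WT day 0, 7.56, 7.58 and 7.64 in WT day 4, 7.50, 7.60 and 7.60 in KO day 0 and 6.99, 6.88 and 7.02 in KO day 4. In Nhp2 the KO day 4 arrays alone stood apart, below all the others, with a fall in KO of 0.60 ± 0.07 (adjusted p = 5.58e-05). Gar1, a further core protein, read 7.04, 6.93 and 6.92 in WT day 0, 7.34, 7.35 and 7.66 in WT day 4, 6.88, 7.0003 and 6.91 in KO day 0 and 7.23, 7.19 and 7.18 in KO day 4. All day 4 arrays were above all day 0 arrays. It rose in WT by 0.49 ± 0.09 (adjusted p = 0.00166) and in KO by 0.27 ± 0.09 (adjusted p = 0.039), and the rise in KO did not pass in 10 of the 20 alternative analyses. Nolc1, a nucleolar chaperone of these particles, fell in KO by 0.31 ± 0.09 (adjusted p = 0.0199).

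Of the 10 small subunit genes, 7 fell and 1 rose in KO, while 3 fell and 1 rose in WT. Of the 8789 genes at or above the level of the lowest member, 32.0% fell and 19.8% rose in KO. In WT 22.2% of them fell and 18.3% rose. Bysl read 7.37, 7.57 and 7.40 in WT day 0, 6.72, 6.79 and 6.99 in WT day 4, 7.27, 6.95 and 7.07 in KO day 0 and 6.10, 6.20 and 6.07 in KO day 4. Each genotype was lower at day 4 than at day 0 on every array, and KO day 4 was the lowest. Rrp12, a factor of late small subunit maturation, read 6.60, 6.77 and 6.59 in WT day 0, 5.99, 6.35 and 6.35 in WT day 4, 6.41, 6.42 and 6.38 in KO day 0 and 5.24, 5.37 and 5.56 in KO day 4. Again KO day 4 lay under every other array. Rrp12 fell by 0.42 ± 0.11 (adjusted p = 0.0134) in WT and 1.01 ± 0.11 (adjusted p = 2.3e-05) in KO. Utp20, a scaffold of the early small subunit particle, fell by 0.40 ± 0.11 (adjusted p = 0.0192) in WT and 0.93 ± 0.11 (adjusted p = 4.13e-05) in KO. Heatr1 (-0.56 ± 0.10, adjusted p = 0.000889), Noc4l (-0.39 ± 0.07, adjusted p = 0.00085), Dhx37 (-0.50 ± 0.09, adjusted p = 0.000826) and Imp4 (-0.45 ± 0.08, adjusted p = 0.000892) passed the test as lower in KO and did not pass it in WT. Wdr43 rose in WT by 0.37 ± 0.10 (adjusted p = 0.0161) and did not pass in KO. Nob1, the endonuclease of the last cut, read 8.78, 8.75 and 8.57 in WT day 0, 8.91, 8.83 and 8.97 in WT day 4, 8.65, 8.81 and 8.79 in KO day 0 and 8.55, 8.59 and 8.80 in KO day 4. Its WT day 4 arrays were above all the others by a narrow margin, and it passed over time in neither genotype. Ddx10, an RNA helicase, read 6.92, 6.89 and 6.71 in WT day 0, 6.99, 6.96 and 7.10 in WT day 4, 6.96, 6.98 and 6.93 in KO day 0 and 7.33, 7.30 and 7.25 in KO day 4. It rose in KO by 0.33 ± 0.08 (adjusted p = 0.00507), with all KO day 4 arrays above the rest.

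Of the 13 large subunit genes, 4 fell and 1 rose in KO, while 1 fell and 3 rose in WT. In KO 30.8% thus fell, near the 32.0% of genes at or above the level of the lowest member. In WT 23.1% rose, where 18.3% of those genes did. Bop1, which with Pes1 and Wdr12 forms the PeBoW complex, read 8.12, 8.31 and 8.17 in WT day 0, 7.92, 7.95 and 8.02 in WT day 4, 8.13, 8.12 and 8.11 in KO day 0 and 7.19, 7.13 and 7.18 in KO day 4. The KO day 4 arrays lay well under every other array. Bop1 fell in KO by 0.95 ± 0.07 (adjusted p = 1.6e-06), and its fall in WT was smaller, at -0.24 ± 0.07, adjusted p = 0.0287. Its partners Pes1 and Wdr12 did not pass the test over time in either genotype. Nop2, a ribosomal RNA methyltransferase, read 8.93, 9.01 and 9.05 in WT day 0, 8.73, 8.82 and 9.09 in WT day 4, 8.84, 8.91 and 8.88 in KO day 0 and 8.11, 8.30 and 8.09 in KO day 4. Nop2 again had its lowest 3 values in KO day 4, and it fell there by 0.71 ± 0.10 (adjusted p = 0.000114). Ftsj3, also a methyltransferase of the precursor, read 7.40, 7.43 and 7.44 in WT day 0, 7.59, 7.53 and 7.69 in WT day 4, 7.44, 7.56 and 7.52 in KO day 0 and 7.13, 6.996 and 7.19 in KO day 4. For Ftsj3 the KO day 4 arrays were the 3 lowest, after a fall in KO of 0.40 ± 0.08 (adjusted p = 0.00145), and the WT day 4 arrays overlapped KO day 0. Wdr74 fell in KO by 0.32 ± 0.08 (adjusted p = 0.0083). Ppan, a large subunit assembly factor, read 9.12, 9.06 and 9.20 in WT day 0, 9.64, 9.45 and 9.70 in WT day 4, 9.03, 9.10 and 8.95 in KO day 0 and 9.27, 9.28 and 9.32 in KO day 4. All day 4 arrays were above all day 0 arrays. It rose by 0.47 ± 0.08 (adjusted p = 0.000997) in WT and 0.27 ± 0.08 (adjusted p = 0.0244) in KO, but its second probe set read lower at day 4 in both genotypes. With both probe sets averaged the change of Ppan was 0.19 (adjusted p = 0.112) in WT and -0.058 (adjusted p = 0.641) in KO.

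**Figure D3:**
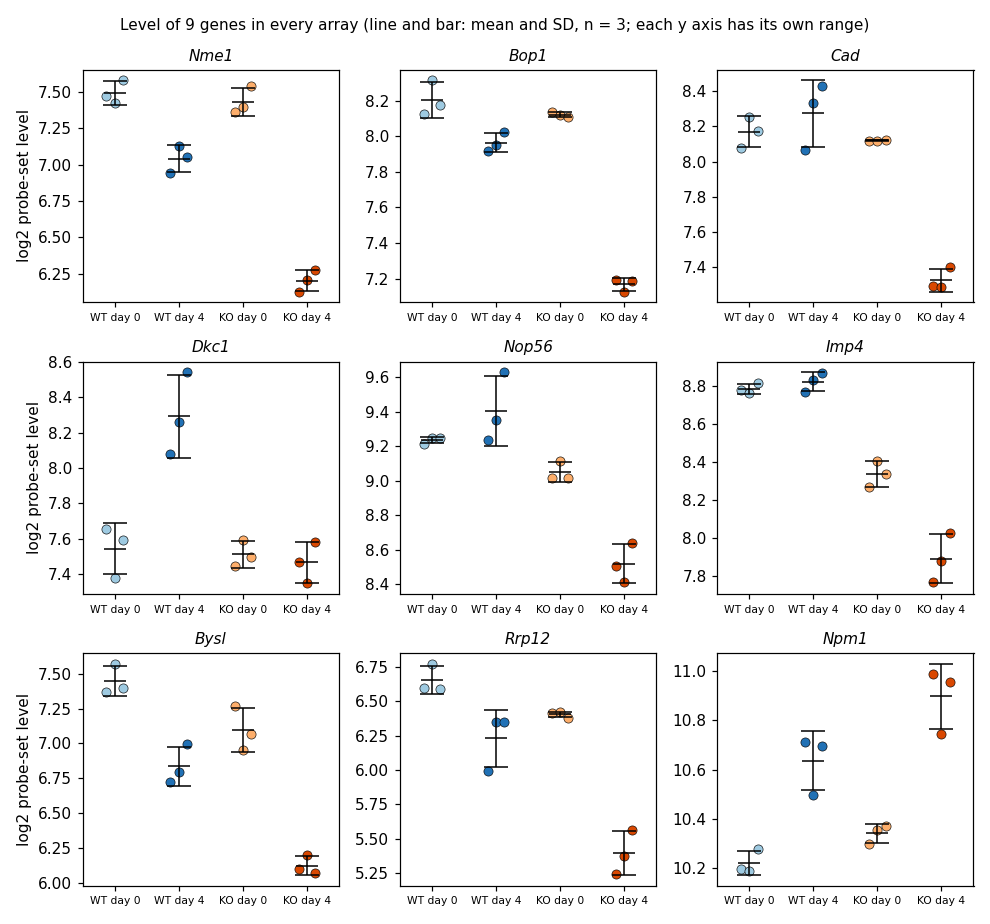
Log2 value on each array for 9 of the genes, by group, with 3 points per group and bars for the mean and SD (n = 3). Each panel has its own vertical range. Bop1, Cad and Nme1 have their lowest points in KO day 4, Dkc1 has its highest in WT day 4, and Npm1 rises in both genotypes.

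Among the nucleolar scaffold genes, Npm1 encodes nucleophosmin and Ncl nucleolin, the abundant proteins of the nucleolus. Npm1 read 10.20, 10.19 and 10.28 in WT day 0, 10.71, 10.50 and 10.70 in WT day 4, 10.30, 10.36 and 10.37 in KO day 0 and 10.99, 10.75 and 10.96 in KO day 4. Both day 4 groups were above both day 0 groups, with a rise of 0.42 ± 0.09 (adjusted p = 0.00339) in WT and 0.56 ± 0.09 (adjusted p = 0.00032) in KO. Npm1 has near-identical processed copies in the genome, so its probe set may read more than 1 locus. Mybbp1a, a nucleolar MYB-binding protein, read 9.06, 9.06 and 9.13 in WT day 0, 9.07, 9.17 and 9.29 in WT day 4, 8.95, 8.86 and 8.78 in KO day 0 and 8.45, 8.44 and 8.41 in KO day 4. The KO day 4 arrays were the lowest. It fell in KO by 0.43 ± 0.08 (adjusted p = 0.000994) and did not pass in WT. Ddx21, a helicase linked to RNA polymerase I transcription, fell in KO by 0.28 ± 0.10 (adjusted p = 0.0413), a call lost in 9 of the 20 alternatives. Ncl passed over time in neither genotype.

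The 6 metabolic and mitochondrial targets had the lowest medians of all roles, -0.36 in WT, where 4 fell, and -0.78 in KO, where 5 fell. Of the 8789 genes at or above the level of the lowest member, 22.2% fell in WT and 32.0% in KO. Nme1, a nucleoside diphosphate kinase, read 7.47, 7.42 and 7.58 in WT day 0, 6.94, 7.13 and 7.06 in WT day 4, 7.36, 7.39 and 7.54 in KO day 0 and 6.13, 6.21 and 6.27 in KO day 4. The groups fell into steps, with both day 0 groups highest, WT day 4 below them and KO day 4 lowest. Odc1, the first enzyme of polyamine synthesis, read 8.39, 8.53 and 8.49 in WT day 0, 7.64, 7.997 and 7.98 in WT day 4, 8.70, 8.62 and 8.86 in KO day 0 and 7.56, 7.77 and 7.60 in KO day 4. For Odc1 the day 4 groups overlapped, and it fell by 0.60 ± 0.11 (adjusted p = 0.00125) in WT and 1.09 ± 0.11 (adjusted p = 1.17e-05) in KO. Srm, the spermidine synthase, read 10.80, 10.83 and 10.74 in WT day 0, 10.38, 10.56 and 10.62 in WT day 4, 10.65, 10.65 and 10.59 in KO day 0 and 9.76, 9.85 and 9.96 in KO day 4. KO day 4 was again under every other array. Srm fell in KO by 0.77 ± 0.08 (adjusted p = 2.11e-05) and in WT by 0.27 ± 0.08 (adjusted p = 0.0316). Cad, the enzyme of the first steps of pyrimidine synthesis, read 8.08, 8.26 and 8.17 in WT day 0, 8.06, 8.33 and 8.43 in WT day 4, 8.12, 8.12 and 8.13 in KO day 0 and 7.29, 7.29 and 7.40 in KO day 4. WT day 4 overlapped both day 0 groups in Cad, and KO day 4 was the lowest, after a fall of 0.80 ± 0.09 (adjusted p = 4.07e-05). Pprc1, a coactivator of mitochondrial biogenesis, fell by 0.46 ± 0.10 (adjusted p = 0.00476) in WT and 0.77 ± 0.10 (adjusted p = 8.71e-05) in KO. Tfb2m, a mitochondrial transcription factor, passed in neither.

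Before reprogramming, KO and WT cells were compared at day 0. Of the 42 genes 1 was lower in KO and 0 were higher, at backgrounds of 3.12% lower and 2.48% higher over all genes. At an unadjusted p under 0.05 in limma, 9 were lower (21.4%) and 1 was higher (2.38%), against 9.15% and 7.50% of all genes. All KO day 0 arrays were below all WT day 0 arrays for 20 of the 42 genes, against 16.4% of all genes. The difference was below 0 for 34 of the 42 genes (81.0%) and for 51.3% of all genes. The median difference was -0.09 log2, beside -0.03 over the 8789 genes at or above the level of the lowest member. The gene that passed was Imp4, a protein of the U3 snoRNP complex. Imp4 read 8.78, 8.76 and 8.82 in WT day 0, 8.77, 8.83 and 8.87 in WT day 4, 8.27, 8.41 and 8.33 in KO day 0 and 7.77, 7.88 and 8.02 in KO day 4. It was lower in KO on every array at both days, with a day 0 difference of -0.45 ± 0.08 log2 (SE, n = 3 per group; adjusted p = 0.0044). Imp4 (chr1:34439829-34445747, GRCm38.p6) lies 17.3 Mb from Gdap1 on the same chromosome, and any part of that position in the difference was not tested. The other 5 genes of the set on chromosome 1 (Nop58, Wdr12, Rrs1, Ncl and Tfb2m) did not pass at day 0. Without the first WT day 4 array, whose spread enters the model, or without the first KO day 0 array, 2 genes were lower.

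At day 4 the difference was broad: 32 of 42 genes (76.2%) were lower in KO than in WT and 2 were higher, while 12.4% of all genes were lower and 8.34% were higher. Among the 8789 genes at or above the mean level of the lowest member, 23.5% were lower. Every KO day 4 array was under every WT day 4 array for 34 of the 42 genes, against 17.3% of all genes. The median difference was -0.48 log2, beside 0.00 over all genes and -0.07 over those 8789. Lower genes were found in each role: both RNA polymerase I genes, all 3 of box C/D, 3 of 4 of box H/ACA, 8 of 10 of the small subunit, 9 of 13 of the large subunit, 3 of 4 of the scaffold group and 4 of 6 metabolic targets. The differences furthest from 0 were in Cad, at -0.95 ± 0.09 log2 (SE, n = 3 per group; adjusted p = 6.45e-05), and Imp4, at -0.93 ± 0.08 log2 (SE, n = 3 per group; adjusted p = 2.16e-05), and the smallest that passed as lower was in Ppan, at -0.30 ± 0.08, adjusted p = 0.0193.

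The 8 genes that did not pass at day 4 were Rrp1b, Nip7, Nob1, Gar1, Odc1, Nop16, Rrs1 and Tfb2m, with differences of -0.29 to -0.13 log2. A p that misses the threshold does not show that these were equal. Npm1 (0.26 ± 0.09, adjusted p = 0.0493) and Ddx10 (0.28 ± 0.08, adjusted p = 0.0227) were higher in KO. That of Npm1 was near the threshold and was lost in 13 of the 20 alternatives, and leaving out any array other than the first WT day 4 array left 0 or 1 genes higher. Without the first WT day 4 array 34 genes were lower, against 15.9% of all genes, and the median was -0.52. Without the third WT day 4 array, the one with the highest mean, 29 were lower and the median was -0.40. With only the WT and KO day 4 arrays in the fit, 23 were lower and 0 higher.

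**Figure D4:**
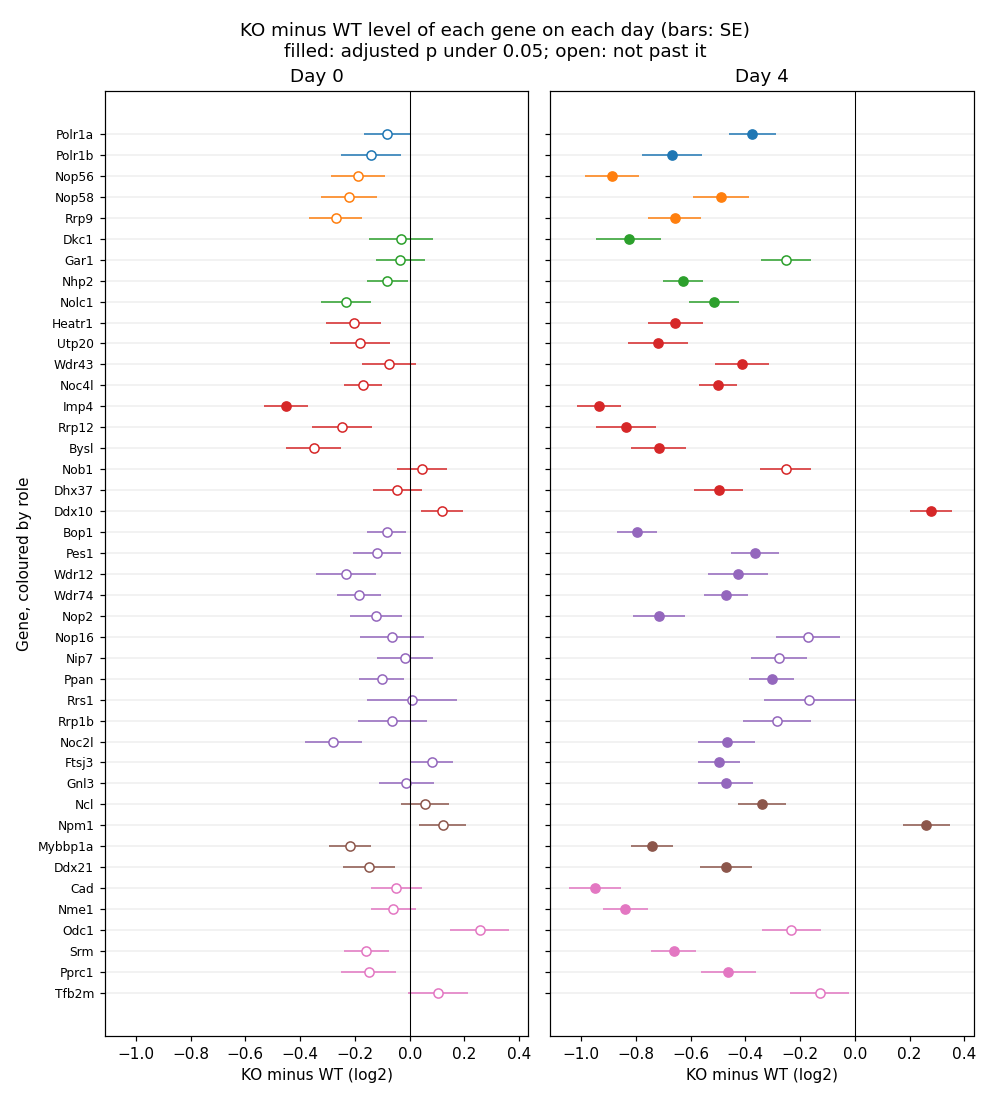
Difference KO minus WT (log2, with its standard error) for each of the 42 genes at day 0 and at day 4, ordered by role. Points below 0 number 34 of 42 at day 0, where most lie near 0 and Imp4 is the lowest, and 40 of 42 at day 4.

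The last comparison tested whether the change over 4 days itself differed between genotypes, as the KO change minus the WT change. It uses the same arrays as the comparisons above and is not independent of them. The difference was below 0 for 40 of the 42 genes and for 51.0% of all genes, and 11 passed the test as lower with 0 higher, at backgrounds of 1.81% lower and 2.15% higher. At or above the level of the lowest member 3.68% of genes were lower and 3.38% higher. At an unadjusted p under 0.05 in limma, 28 were lower (66.7%) and 0 higher, against 10.2% and 8.85% of all genes. The median was -0.35 log2, beside -0.01 over all genes and -0.06 over those at or above that level. Cad, at -0.90 ± 0.13 log2 (SE, n = 3 per group; adjusted p = 0.00393), Dkc1, at -0.80 ± 0.17 log2 (SE, n = 3 per group; adjusted p = 0.0213), and Nme1, at -0.78 ± 0.12 log2 (SE, n = 3 per group; adjusted p = 0.00453), were furthest from 0.

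The 11 genes reached their difference along separate routes. Dkc1 rose in WT and did not pass in KO. Bop1, Nme1 and Srm fell in both genotypes and fell further in KO, though the falls of Bop1 and Srm in WT were each lost in 6 of the 20 alternatives. Nop56, Nhp2, Imp4, Nop2, Ftsj3, Mybbp1a and Cad fell in KO and did not pass in WT, though Nop56 lost its fall in KO and its difference with its probe sets averaged. A further 7 genes fell in KO without passing in WT (Rrp9, Nolc1, Heatr1, Noc4l, Dhx37, Wdr74 and Ddx21), and their difference between genotypes did not pass. Without the first WT day 4 array 19 genes passed as lower, and 5.31% of all genes did. Among the 19 were Odc1 at -0.60 (adjusted p = 0.0128) and Rrp12 at -0.71 (adjusted p = 0.00663). Without one of the first 2 WT day 0 arrays 6 passed, and without one of the KO day 0 arrays 5 to 7 passed, 5 of them without the second.

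The wider pathway was read from lists of other genes. In the large subunit list 18 of 42 other genes were lower in KO at day 4 and 0 were higher, and 15 of 45 other small subunit genes were lower with 1 higher. Over all genes 12.4% were lower, and 23.5% of those at or above the level of the lowest member. Pelp1, a part of a complex that matures the large subunit, differed by -0.67 ± 0.09, adjusted p = 0.000347. Among the lower genes were Tbl3, a U3 snoRNP protein (-0.77 ± 0.08, adjusted p = 8.85e-05), and Nol6, a further early small subunit factor (-0.73 ± 0.08, adjusted p = 0.000148). Of 11 other RNA polymerase I genes 6 were lower and 0 higher, among them Ubtf, the factor that opens ribosomal DNA (-0.80 ± 0.09, adjusted p = 0.000118), and Tcof1, which encodes treacle (-0.63 ± 0.09, adjusted p = 0.000495). Of 11 other snoRNP genes 3 were lower and 0 higher, a share of 27.3%, near the 23.5% background. Of 11 RNA exosome genes, which degrade and trim the precursor, 5 were lower and 0 higher, led by Exosc2 (-0.68 ± 0.10, adjusted p = 0.000477). Of 33 other MYC targets 16 were lower and 1 was higher. They included Fkbp4, a chaperone of the FKBP family (-0.59 ± 0.07, adjusted p = 0.000194), Prmt1, an arginine methyltransferase (-0.67 ± 0.08, adjusted p = 0.000214), and Tfrc, the transferrin receptor (-0.88 ± 0.12, adjusted p = 0.000383). The medians of these 6 lists at day 4 lay between -0.38 and -0.17. They were 0.00 over all genes and -0.07 over those at or above the level of the lowest member. Without the first WT day 4 array 23 small subunit genes, 21 large subunit genes, 7 RNA polymerase I genes, 3 snoRNP genes, 6 exosome genes and 17 MYC targets were lower. The share of all genes that were lower also grew without it, to 15.9%.

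Over time fewer genes of each of these lists passed in WT than in KO, as over all genes, where 22.9% passed in WT and 30.8% in KO. In WT 5 of 11 other RNA polymerase I genes rose and 0 fell, and in KO 2 rose and 5 fell. Other small subunit genes gave 3 higher and 4 lower in WT, and 3 higher and 17 lower in KO. Other large subunit genes gave 6 higher and 4 lower in WT, and 6 higher and 15 lower in KO. In KO 37.8% of the small subunit list and 35.7% of the large subunit list fell. Among the 8789 genes at or above the level of the lowest member 32.0% fell and 19.8% rose, so both shares lay near that background. Other snoRNP genes gave 2 higher and 1 lower in WT, and 2 higher and 4 lower in KO. RNA exosome genes gave 2 higher and 2 lower in WT, and 1 higher and 6 lower in KO. Other MYC targets gave 10 higher and 4 lower in WT, and 4 higher and 13 lower in KO. The difference of the changes passed as lower for 2, 4, 2, 0, 1 and 5 genes of these lists in that order and as higher for 0. Without the first WT day 4 array it passed as lower for 4, 10, 6, 2, 3 and 9 genes and as higher for 2 of the other MYC targets. Over all genes 1.81% passed as lower with that array and 5.31% without it. Without that array 1 large subunit gene fell in WT in place of 4. At day 0 the lists gave 1 lower gene, Polr1c (-0.45 ± 0.09, adjusted p = 0.00754), and 2 higher, Ddx24 (0.52 ± 0.10, adjusted p = 0.00846) and Nampt (0.94 ± 0.14, adjusted p = 0.0015).

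Myc, whose product drives many of these genes and is also 1 of the transduced factors, fell over the 4 days. Myc read 8.51, 8.37 and 8.55 in WT day 0, 7.44, 7.61 and 7.33 in WT day 4, 8.79, 8.73 and 8.74 in KO day 0 and 7.81, 7.84 and 7.80 in KO day 4. Both day 4 groups were below both day 0 groups, with a fall of 1.02 ± 0.08 (adjusted p = 3.06e-06) in WT and 0.94 ± 0.08 (adjusted p = 4.92e-06) in KO. Its level at day 4 was higher in KO than in WT by 0.36 ± 0.08, adjusted p = 0.00949, where most of the 42 genes were lower. The changes of Myc in the genotypes did not differ past the test (0.08 ± 0.12, adjusted p = 0.795). Whether the probe set reads the transduced sequence is not given in the sources used here. Max rose in WT by 0.33 ± 0.07 (adjusted p = 0.00377) and did not pass in KO (0.18 ± 0.07, adjusted p = 0.0665). Mycn fell in WT by 0.51 ± 0.12 (adjusted p = 0.00657) and did not pass in KO (-0.18 ± 0.12, adjusted p = 0.283), and Mycl fell by 0.44 ± 0.13 (adjusted p = 0.027) in WT and 0.60 ± 0.13 (adjusted p = 0.00328) in KO. Mxi1, an antagonist of MYC, rose by 1.24 ± 0.16 (adjusted p = 8.54e-05) in WT and 1.05 ± 0.16 (adjusted p = 0.000232) in KO. In the list of 12 network genes 3 rose and 4 fell in WT, and 1 rose and 4 fell in KO.

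Other lists moved beside the 42 genes. Of 29 genes of DNA replication and division 14 fell in WT over the 4 days (median -0.29) and 22 fell in KO (median -0.52), with 0 higher. Of 14 fibroblast markers 9 fell and 2 rose in WT, and 7 fell and 1 rose in KO. Over all genes 11.7% fell and 11.1% rose in WT, and 16.9% fell and 13.8% rose in KO. Without the first WT day 4 array 11 replication and division genes fell and 1 rose in WT, and 7 fibroblast markers fell there. Of the 29 replication and division genes 23 were lower in KO at day 4 and 0 higher, with a median of -0.51, and 25 without the first WT day 4 array. Among them were Mcm5, of the replicative helicase (-1.20 ± 0.14, adjusted p = 0.000168), and Cdc20, of mitotic exit (-0.94 ± 0.09, adjusted p = 7.03e-05). Their centred mean was -0.13 to 0.21 on the WT day 4 arrays and -0.53 to -0.42 on the KO day 4 arrays. Of the 29 genes 2 passed as lower in KO at day 0, with a median of -0.19, and 4 without the first WT day 4 array. All KO day 0 arrays were below all WT day 0 arrays for 21 of them, against 16.4% of all genes. Of 17 hypoxia response genes 13 were higher in KO at day 4 and 0 lower, and all 17 were higher without the first WT day 4 array. Over all genes 8.34% were higher and 12.4% lower at day 4, and 10.8% and 15.9% without that array. At day 0 the hypoxia genes had a median difference of 0.36 and 0 passed. Without the first WT day 4 array 11 passed as higher at day 0, against 4.04% of all genes. The centred mean of the hypoxia genes was 0.62 to 0.75 on the KO day 4 arrays. It was 0.56, -0.76 and -0.80 on the WT day 4 arrays, so that the first of these read near KO. On the first WT day 4 array the centred mean of the 42 genes was 0.09, the lowest of that group. The replication and division genes also had their lowest mean of that group there, at -0.13. The part of these lists in the lower level of the 42 genes was not tested.

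Markers of macrophages, cells that fibroblast cultures can hold, differed by genotype at both days. Of 11 markers 10 were lower in KO at day 0 and 10 at day 4, with 0 higher. The shares of all genes lower on these days were 3.12% and 12.4%. The mean level of the 11 markers was 6.59 to 6.68 in WT day 0 and 6.44 to 7.06 in WT day 4. It was 5.17 to 5.29 in KO day 0 and 5.28 to 5.29 in KO day 4. The group means of Ptprc, the pan-leukocyte marker CD45, were 4.48 in WT day 0, 4.36 in WT day 4, 3.66 in KO day 0 and 3.49 in KO day 4, the latter pair under the 25th percentile of gene means. Those of Cd68 were 8.41, 8.83, 7.15 and 7.20 in the same order. The median difference of the marker list was -1.50 at day 0 and -1.39 at day 4. Of 22 interferon response genes 19 were higher in KO at day 0 and 10 at day 4, with 0 lower at either day. The shares of all genes higher on these days were 2.48% and 8.34%. The centred mean of the interferon genes was 0.96, -0.40 and -0.98 on the WT day 4 arrays. The first of these thus stood apart here too, and without it 20 interferon genes were higher at day 4. The macrophage count at day 4 was 10 without it as well. Epithelial markers gave 2 of 10 lower at day 0 and 3 at day 4, and endothelial markers 1 of 7 and 0, with 0 higher in either list. The part of these markers in the results was not tested.

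**Figure D5:**
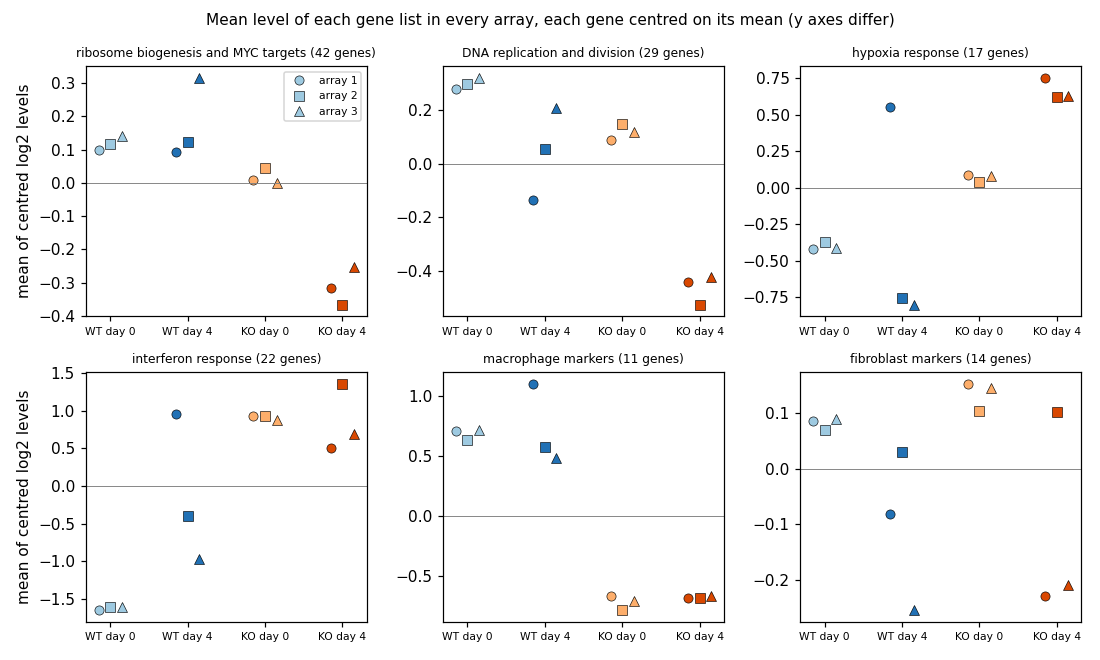
Mean over the genes of each list on each of the 12 arrays, centred on the gene means (log2), for the 42 genes and for the lists that moved beside them. The 42 genes and the DNA replication genes are lowest in KO day 4, the hypoxia genes are highest there and on the first WT day 4 array, the macrophage markers are low in both KO groups, the interferon genes are lowest in WT day 0, and the fibroblast markers spread at day 4 in both genotypes. Vertical ranges differ between panels.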

How the data were processed

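The 12 arrays were read from the series' value table, whose values the authors deposited on a log2 scale, from 1.33 to 13.35. Affymetrix Expression Console is the tool named in the submitters' processing notes. How background was corrected and probes were summarised is not given in the sources used here. Of 41345 probe sets, 23521 carry 1 gene symbol in the platform annotation, 1814 carry several and 16010 none. Probe sets with 1 symbol were used, and for the 1082 genes with more than 1 the probe set with the highest mean was kept, which left 22180 genes. No further normalization was applied, and array medians over genes lay between 5.22 and 5.32. Precision is limited by how many arrays there are.

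Groups came from the sample titles. limma 3.58.1 in R 4.3.3 fitted the 4 group means over all 12 arrays (lmFit, eBayes), so that all groups share 1 estimate of spread. P-values are two-sided and adjusted by Benjamini-Hochberg over all genes, with 0.05 as the threshold, and "passed" refers to it throughout. The model was tested on simulated data. Of 67 simulated 1.5-fold changes, 32.8% were recovered in the difference of the changes. In the other comparisons 62.7% to 71.6% were recovered, so a gene that did not pass may still have changed. By rule, array values are given for all members that passed in the difference of the changes (12 at most), for the 6 with the smallest p over time in each genotype, for the 4 with the smallest p between genotypes at each day, and for the member with the highest mean of each role, and of each list up to 4 genes with the smallest p are named. Polr1b and Ddx10 were added after their values were seen. The members and lists were chosen with earlier results of these data known, so their counts are descriptions. Alternatives were median centring, quantile normalization, array weights, averaging all probe sets of a gene, dropping genes below the 25th percentile of means, a trended and robust prior, a fit of the compared groups alone, a replicate block and leaving out each array. Same-numbered arrays of different groups deviated together (r over 0.1) in 2 of 18 pairs. Both were of WT and KO day 4 arrays, array 2 (r of 0.18) and array 3 (0.12). The highest r between arrays of other numbers was 0.12. With 3 arrays a group these values cannot exclude a pairing, and the main fit used none.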

Additional observations from a re-analysis of the deposited data

Results flagged for a closer look

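The change over the 4 days differed between genotypes, by the test of the difference itself, for 11 of the 42 genes, all in the same direction (KO change minus WT change below 0). No outlier test of single genes was run, since groups of 3 arrays are too small for it. For Bop1 the difference was -0.71 ± 0.10 (SE, adjusted p = 0.00351 in limma), for Cad -0.90 ± 0.13 (adjusted p = 0.00393) and for Nme1 -0.78 ± 0.12 (adjusted p = 0.00453). These 3 also had KO day 4 arrays below all other arrays. Ftsj3 gave -0.58 ± 0.11 (adjusted p = 0.0128), Nhp2 -0.55 ± 0.10 (adjusted p = 0.0143) and Nop56 -0.70 ± 0.14 (adjusted p = 0.0174). Dkc1 gave -0.80 ± 0.17 (adjusted p = 0.0213) with a rise in WT, and Mybbp1a -0.52 ± 0.11 (adjusted p = 0.0218). Nop2 at -0.59 ± 0.14 (adjusted p = 0.0310), Srm at -0.50 ± 0.12 (adjusted p = 0.0333) and Imp4 at -0.48 ± 0.11 (adjusted p = 0.0334) were closest to the threshold, and each of these lost its call in 9 or 10 of 19 alternatives.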

How the results depend on the processing

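For the 42 genes, the counts and medians were recomputed under 8 other settings and with each array left out, and for the other lists only without the first WT day 4 array, a choice made after seeing the data. Calls were kept under all of them for 7 of 16 genes in WT over time, 21 of 26 in KO over time, 1 of 1 between genotypes at day 0, 23 of 34 at day 4 and 5 of 11 for the difference of the changes. With only the groups compared in the fit, 5 genes fell in WT, 2 were lower in KO at day 0, and 23 were lower and 0 higher at day 4. With arrays centred on their medians 2 genes rose in KO. With array weights 1 gene was higher and 4 were lower at day 0, and 19 passed for the difference of the changes. With quantile normalization 1 gene was higher in KO at day 4, and with probe sets averaged also 1. The change of Ppan in KO turned to -0.058 with its probe sets averaged, since they read in opposite directions.

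Leaving out 1 array at a time, 5 to 9 genes rose and 5 to 8 fell in WT, 2 to 4 rose in KO, 1 to 2 were lower at day 0 and 0 to 2 were higher at day 4. The median at day 4 was between -0.52 and -0.40, and 5 to 19 genes passed as lower for the difference of the changes. With the replicate number as a block, 8 genes rose and 8 fell in WT, 3 rose and 22 fell in KO, 1 was lower at day 0, 2 were higher and 32 lower at day 4, and 12 passed for the difference. A fit of only the groups compared gives no separate value for the difference of the changes. The causes of the other lost calls were not tested. With 3 arrays a group and no named batch, differences near the threshold rest on few measurements.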

Other observations

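Of the 42 genes 6 had more than 1 probe set, and some of these read differently. The second probe set of Nop56 had group means of 5.94 in WT day 0, 6.73 in WT day 4, 5.89 in KO day 0 and 6.64 in KO day 4, so that it was higher at day 4 in both genotypes. The third had 4.69, 5.09, 4.63 and 4.07 in the same order, lowest in KO day 4 like the probe set used. The second probe set of Ppan had 7.69, 7.61, 7.58 and 7.20, where the one used was higher at day 4 in both genotypes. The second of Npm1 had 6.24, 6.43, 6.16 and 6.46, higher at day 4 in both genotypes like the one used. The second of Ddx21 had 6.45, 6.38, 6.34 and 5.85, again lowest in KO day 4. These values were not tested.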
